A study of Arabidopsis thaliana with 18 samples.

Results

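UDP-glycosyltransferases (UGTs) were followed through the transcript pools of Arabidopsis thaliana seedlings with an intact or a mutated GCN2 kinase. A locus was a member when an ATH1 probe set was annotated to it alone and its symbol was UGT followed by digits. The probe set with the highest mean would have stood for a locus with several, but each of the 47 loci found had 1. They are 47 of 13286 loci with a probe set of their own, and the RefSeq gene table holds 58 genes with such a symbol. The members fall into 11 numbered families, of which UGT71 (9 loci), UGT76 (8 loci) and UGT73 (7 loci) are the largest, followed by UGT84 and UGT85 (5 each), UGT72 (4), UGT74 and UGT78 (3 each) and UGT80, UGT87 and UGT88 (1 each).

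UGTs move a sugar from a UDP-sugar, mostly UDP-glucose, onto small molecules. The sugar makes flavonoids and anthocyanins stable and soluble, forms part of the core of glucosinolates, and stores or inactivates hormones such as abscisic acid, auxin, cytokinin and salicylic acid. In Arabidopsis the genes often lie side by side as copies, and UGT80B1, a sterol glucosyltransferase, belongs to a branch distant from the other members.

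All plants were of the Landsberg erecta line and 10 days old, and their aerial parts were frozen 4 h after the lights came on. The 18 arrays form 6 groups of 3, wild type and gcn2, each as total RNA, polysomal RNA (the 6 pooled fractions from the bottom of a sucrose gradient) and non-polysomal RNA (the 6 from the top). The labels name the mutant only as gcn2, without its allele, and do not say whether equally treated replicates were grown separately, so the p-values may measure technical spread. GCN2 itself was not analysed here, and no transcript checks the genotype.

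Signals are the deposited log2 values per probe set, and a difference of 1 is 2-fold. Array medians lay between 5.05 and 5.18 and lower quartiles between 3.21 and 3.52. Of the 7 leaf markers with a probe set annotated to them alone, 6 exceeded the upper quartile of every array in all groups. The root hair expansins EXPA7 and EXPA18 had group means of 3.57 to 4.55, while PYK10, a beta-glucosidase of root and hypocotyl, reached 11.0 in gcn2 total RNA and was lowest, at 8.36, in wild-type non-polysomal RNA. None of 6 flower markers had a probe set annotated to it alone. The summed root marker level ran from 10.3 to 11.2 over the total RNA arrays, from 9.91 to 10.4 over the polysomal and from 8.09 to 8.95 over the non-polysomal arrays, and that of the leaf markers from 15.1 to 15.6, 15.4 to 15.5 and 14.6 to 14.9. The polysomal and non-polysomal pools of a gradient are its bottom and top, and so share the organ content of the plants loaded on it. What part organ content has in other differences, as between total RNA and the fractions or between the genotypes, was not tested. There less RNA per cell cannot be told from fewer cells. In total and polysomal RNA the ranges of both sums overlapped between the genotypes. In non-polysomal RNA the root sums were 8.09 to 8.76 in wild type and 8.82 to 8.95 in gcn2. These sums mostly follow PYK10, by far the strongest of the root markers. PYK10 stood at 0.42 (SE 0.20) for gcn2 against wild type there. EXPA7 and EXPA18 stood the other way, at −0.13 (SE 0.19) and −0.22 (SE 0.15), and none of these values passed.

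Signals of many members were low in these aerial parts, as were those of many other probe sets. A filter for dim probe sets, with every group mean below the median of all values, removed 26 of 47 members. It removed 10178 of all 22746 probe sets. In 26 of 47 members all 6 group means lay below the median of every array, and in 11 of these they lay below every lower quartile, where a low level cannot be told from background. Those 11 were UGT71C1, UGT71C2, UGT71C3, UGT73C1, UGT73C2, UGT73C7, UGT73D1, UGT76E1, UGT76E12, UGT78D3 and UGT84B2. UGT74B1, UGT87A2 and UGT88A1 lay above every upper quartile in all groups. Probe sets beyond every lower or upper quartile were not counted over the whole array.

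Loading, the polysomal minus the non-polysomal signal, was called for 11 of 47 members in at least 1 genotype, where 36.3% of all probe sets were. In wild type 2 loci were higher and 5 lower in polysomal RNA, and in gcn2 4 were higher and 3 lower (limma, adjusted p under 0.05 over 22746 probe sets). That is 14.9% of the members in each genotype, where 28.5% of all probe sets were called in wild type and 28.5% in gcn2. By direction, 15.2% of all probe sets were called higher and 13.3% lower in wild type, and 15.1% and 13.4% in gcn2. The median loading of the members was −0.05 in wild type and 0.09 in gcn2, beside −0.07 and −0.04 over all probe sets. At an unadjusted p under 0.05 there were 15 members in wild type and 10 in gcn2, where 39.2% and 37.4% of all probe sets had one. Among the 21 members left when dim probe sets were removed, 7 and 8 were called, beside 46.1% and 47.8% of all probe sets left. UGT71C5 was the only member to differ by at least 2-fold in either genotype, a size that 8.32% of all probe sets reached in wild type and 8.83% in gcn2. Higher and lower are meant against the deposited scale of an array. With each array centred on its BioB and BioC control probe sets 40 of 47 members were called higher and 0 lower in each genotype, beside 75.8% of all probe sets called in wild type and 69.7% in gcn2. That scaling gave the median of all probe sets a loading of 0.86 in wild type, in place of −0.07, and of 0.81 in gcn2, in place of −0.04. The controls themselves were higher on the non-polysomal array in all 6 gradients, by 0.72 to 1.26. The excess of 3′ over 5′ signal (log2) of the Actin, GAPDH and ubiquitin controls also moved with the fraction. It was 2.81 to 3.10 in polysomal and 3.04 to 3.60 in non-polysomal RNA of wild type, and 2.69 to 3.23 against 3.39 to 4.19 in gcn2, without overlap in gcn2, beside 2.16 to 2.40 in total RNA. Its part in the loading values, and in the differences between the genotypes, was not tested.

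The labels give replicate numbers but state no shared batch. Fraction arrays of equal number deviated alike, so equal numbers were taken to pair the gradients. When the number was made a block among the 12 fraction arrays, 16 members were called in wild type, 9 higher and 7 lower, where 36.8% of all probe sets were called. In gcn2 the block gave 10, 6 higher and 4 lower, beside 36.0%. Below, the block means this fit of 12 arrays unless 18 arrays are named. With the block on 18 arrays UGT74D1 was the only call added in wild type. The wild-type count of 7 without the block was 4 when wild-type polysomal replicate 1 or 2 was left out, settings that called 22.0% and 22.5% of all probe sets. Over the 6 gradients, 10 loci were higher in polysomal RNA every time, 4 were lower every time and 33 varied in direction. The same count was not made over all probe sets, so these numbers cannot be set against the array.

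**Figure D1:**
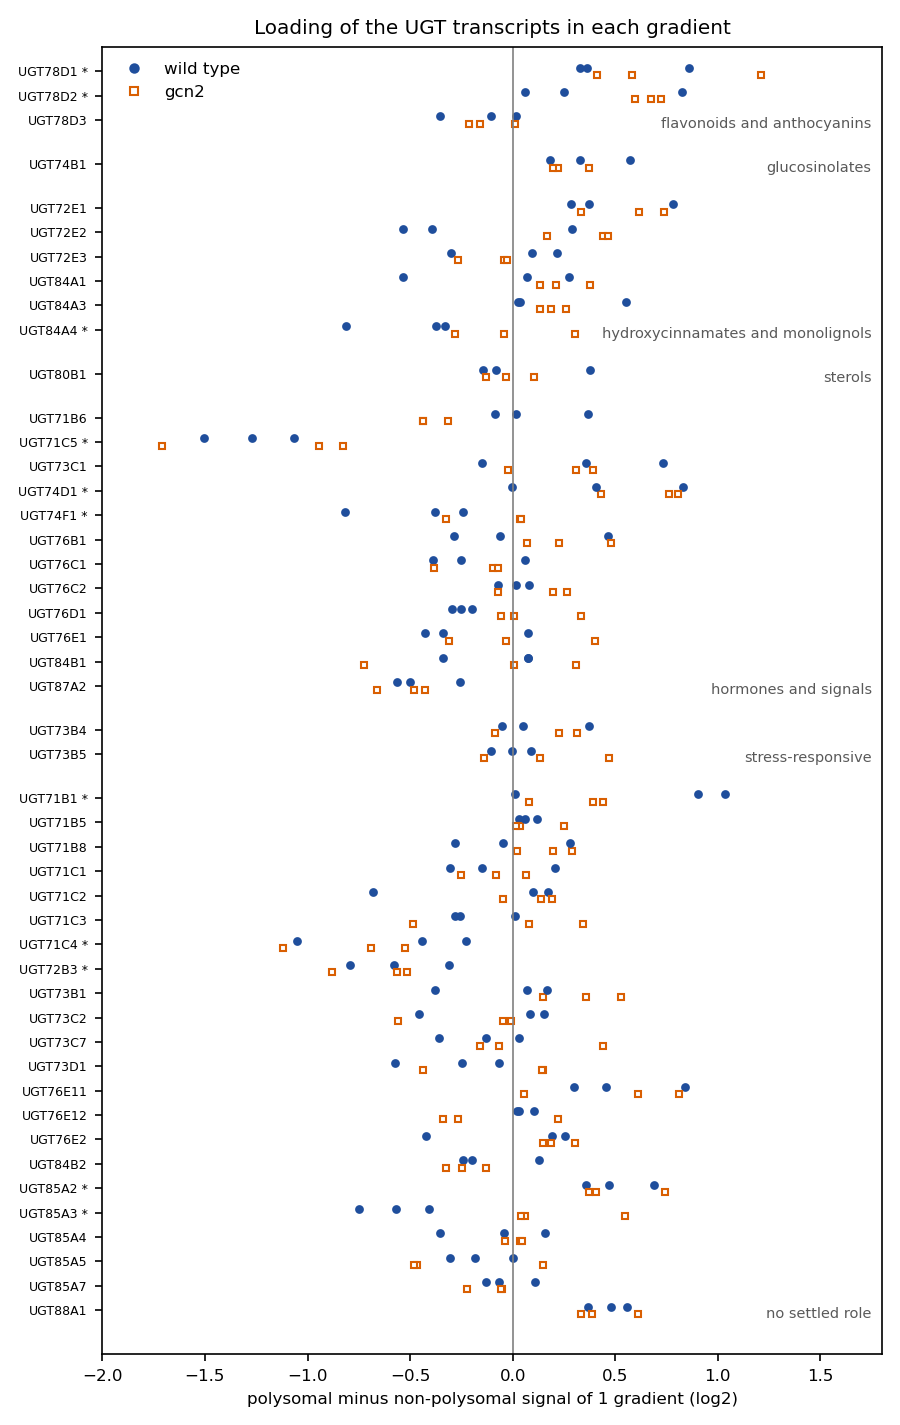
Polysomal minus non-polysomal log2 signal of each gradient for the 47 members, 3 wild-type gradients (filled circles) and 3 gcn2 gradients (open squares) per locus, grouped by known role with the name of each role at the right of its last row. A gradient is taken as the polysomal and the non-polysomal array of equal replicate number in a genotype. A star marks the 11 loci called in at least 1 genotype. UGT71C5 is the lowest of the 47 loci in each of the 6 gradients, from −1.71 to −0.82.

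UGT78D1 and UGT78D2 attach the first sugar to flavonoids. UGT78D1 (AT1G30530) transfers rhamnose to flavonols, and UGT78D2 (AT5G17050) transfers glucose to flavonols and anthocyanidins. In wild type UGT78D1 measured 6.88, 6.84 and 6.88 in polysomal RNA and 6.55, 5.98 and 6.52 in non-polysomal RNA, and in gcn2 7.13, 7.15 and 7.22 against 6.72, 6.57 and 6.01. All polysomal arrays exceeded all non-polysomal arrays of their genotype. UGT78D1 loading was 0.74 in gcn2 (SE 0.22, n = 3 per group, limma adjusted p = 0.0178), a rise that lost its call without gcn2 polysomal replicate 3 (0.0502) or non-polysomal replicate 3 (0.109). Its adjusted p lay between 4.06e-05 and 0.109 in the alternatives. In wild type it was 0.52 (SE 0.22, adjusted p = 0.0933) and did not pass, but passed with the replicate block (0.0261) and with only the groups compared (0.0446).

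UGT78D2 measured 7.03, 7.001 and 6.88 in wild-type polysomal RNA and 6.21, 6.75 and 6.83 in the non-polysomal pool, and 7.10, 7.25 and 7.32 against 6.50, 6.57 and 6.59 in gcn2. Its groups did not overlap in either genotype, with a wide gap in gcn2 and a narrow one in wild type. UGT78D2 rose by 0.67 in gcn2 (SE 0.17, adjusted p = 0.00518), passing in all 13 alternatives. It stood at 0.38 in wild type (SE 0.17, adjusted p = 0.0994), where the block gave an adjusted p of 0.0458. Both transcripts had total RNA signals above either fraction, with group means of 7.88 and 7.84 for UGT78D1 and 7.60 and 7.57 for UGT78D2 in wild type and gcn2. The differences in loading between the genotypes, 0.22 (SE 0.32) and 0.29 (SE 0.24), did not pass (adjusted p = 0.997 and 0.978), with 95% intervals of −0.44 to 0.88 and −0.21 to 0.78.

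UGT78D3, the flavonol arabinosyltransferase of the same family, had signals near background, from 2.59 to 3.18 over the 12 fraction arrays. Its loading of −0.15 (SE 0.15) in wild type and −0.12 (SE 0.15) in gcn2 did not pass. From the list of flavonoid and phenylpropanoid enzymes and regulators, 2 of 25 loci had a probe set annotated to them alone, and the other 23 were not analysed here. DFR, the reductase that leads to anthocyanidins, stood at −0.08 (SE 0.33) in wild type and −0.09 (SE 0.33) in gcn2. BAN, the anthocyanidin reductase of seed coat tannins, stood at −0.17 (SE 0.15) and 0.16 (SE 0.15). Of these 2, 0 were called in any of the 6 comparisons.

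UGT74B1 (AT1G24100) adds glucose to the sulfur of thiohydroximates, the step before sulfation in glucosinolate synthesis. It was well detected, at 8.66, 8.37 and 8.72 in wild-type and 8.86, 8.47 and 8.60 in gcn2 total RNA. In wild type it measured 7.70, 7.80 and 7.85 in polysomal against 7.13, 7.61 and 7.52 in non-polysomal RNA, without overlap, and in gcn2 7.72, 8.09 and 7.98 against 7.35, 7.87 and 7.78, with overlap. The polysomal array was the higher one in all 6 gradients. UGT74B1 loading of 0.36 (SE 0.17) in wild type and 0.26 (SE 0.17) in gcn2 did not pass in limma (adjusted p = 0.117 and 0.274). With the replicate block the wild-type value passed (0.0310).

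Of 23 listed glucosinolate genes 3 had such a probe set, and 2 of these rose in both genotypes, beside 15.2% and 15.1% of all probe sets called higher. BCAT4, an aminotransferase that starts the elongation of methionine, stood at 0.92 (SE 0.17) in wild type and 0.88 (SE 0.17) in gcn2. GSTU20, a glutathione transferase of the pathway, stood at 1.45 (SE 0.18) and 1.67 (SE 0.18). AOP3, which modifies the side chain, did not pass, at 0.29 (SE 0.17) and 0.04 (SE 0.17). Of 25 loci for the supply of UDP-sugars, only USP had such a probe set. USP, a UDP-sugar pyrophosphorylase, rose in both genotypes, by 0.69 (SE 0.14, adjusted p = 0.00105) and 0.51 (SE 0.14, adjusted p = 0.0105).

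**Figure D2:**
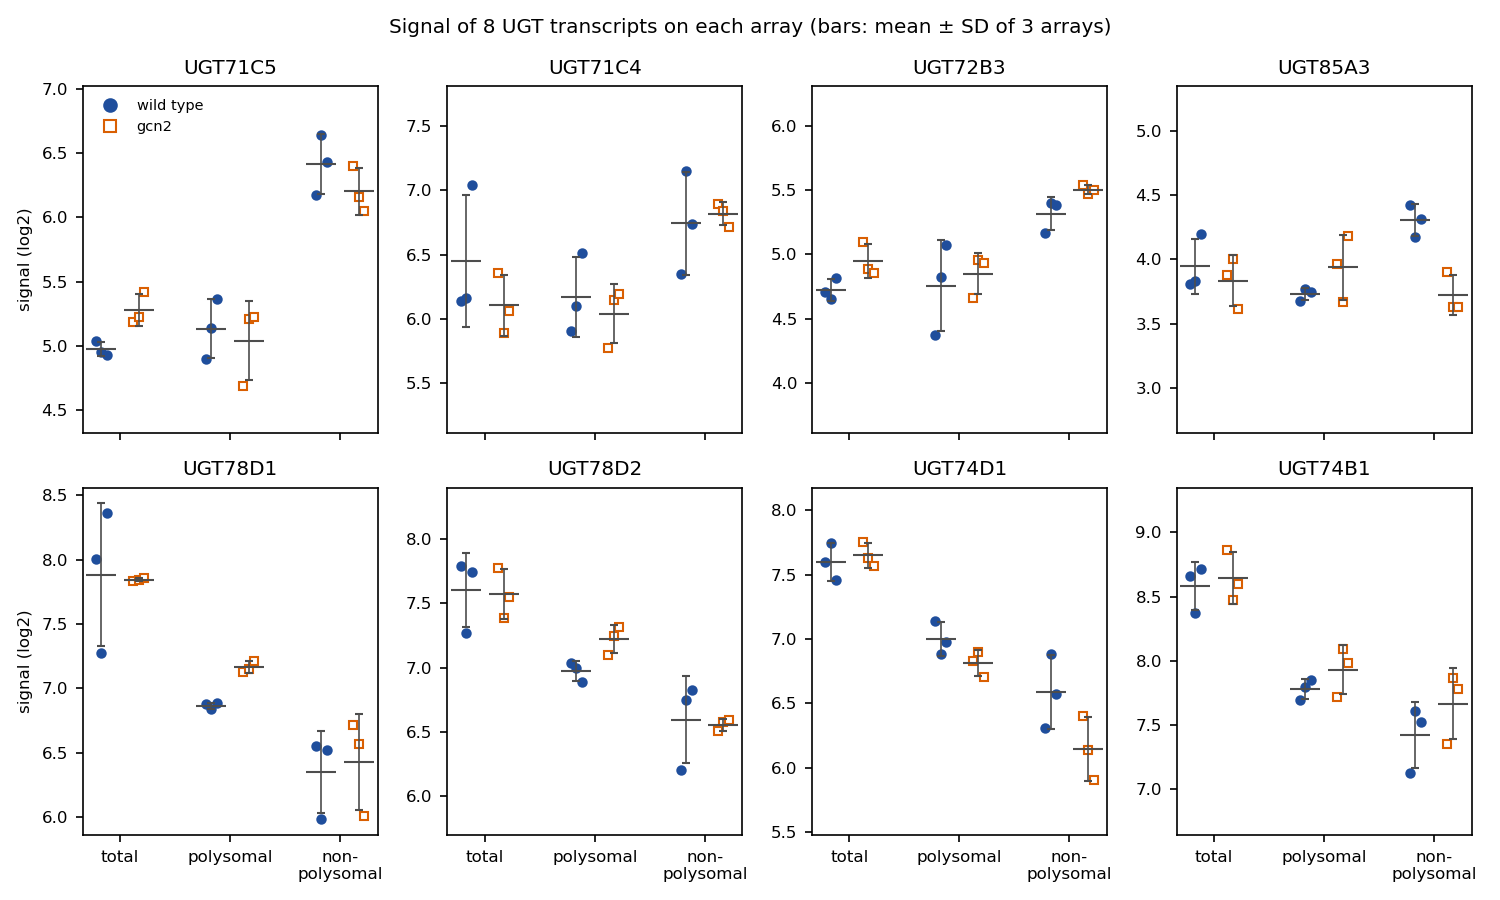
Log2 signal of 8 UGT transcripts on each of the 18 arrays, in total, polysomal and non-polysomal RNA of wild type (filled circles) and gcn2 (open squares), with bars for the mean ± SD of 3 arrays; each panel spans 2.7 log2 units but starts at its own level. UGT71C5 is higher in non-polysomal RNA than in either other pool, while UGT78D1, UGT78D2, UGT74D1 and UGT74B1 are highest in total RNA.

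Among the UGTs for phenolic acids and lignin precursors, 1 of 6 was called in wild type and 0 of 6 in gcn2, beside 28.5% of all probe sets in each. UGT84A1, UGT84A3 and UGT84A4 make glucose esters of hydroxycinnamic acids, and UGT72E1, UGT72E2 and UGT72E3 glucosylate monolignols and their aldehydes. UGT84A4 (AT4G15500) fell by 0.51 in wild-type polysomal RNA (SE 0.17, adjusted p = 0.0331), from 5.60, 5.68 and 5.44 in the non-polysomal pool to 5.23, 4.87 and 5.11. In gcn2 it measured 5.11, 5.12 and 5.61 in polysomal and 5.39, 5.16 and 5.31 in non-polysomal RNA, a loading of −0.01 (SE 0.17), and the groups overlapped. The wild-type call was lost without polysomal replicates 2 (0.148) and 3 (0.0589) or non-polysomal replicates 1 (0.0758) and 2 (0.101), and its adjusted p lay between 0.0135 and 0.168 in the alternatives. On the scale of the BioB and BioC controls it was also lost and the sign reversed, at 0.43 (0.168).

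UGT72E1, which acts on coniferyl and sinapyl aldehyde, had positive loading in all 6 gradients, with means of 0.48 and 0.56 in wild type and gcn2. Its arrays varied widely between replicates (SE 0.35 each, adjusted p = 0.328 and 0.261). With the replicate block, the SE was 0.14 and both values passed (adjusted p = 0.0108 and 0.00361). UGT84A3 also had positive values in all 6 gradients, at 0.21 (SE 0.23) and 0.19 (SE 0.23), and did not pass. UGT84A1, UGT72E2 and UGT72E3 were not called in either genotype.

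Of the 12 UGTs of hormones and signals, 2 were called in wild type and 2 in gcn2, beside 28.5% of all probe sets in each. The wild-type calls were both lower, and in gcn2 1 was higher and 1 lower. The largest fall of the family was among them. UGT71C5 (AT1G07240), which converts abscisic acid to its glucose ester, measured 4.90, 5.14 and 5.36 in wild-type polysomal RNA against 6.17, 6.64 and 6.43 in the non-polysomal pool. In gcn2 it measured 4.69, 5.21 and 5.22 against 6.40, 6.15 and 6.05. All 6 non-polysomal arrays lay above all 12 others, since total RNA ranged only from 4.93 to 5.42. UGT71C5 fell by 1.28 in wild type (SE 0.17, n = 3 per group, limma adjusted p = 1.37e-05) and by 1.16 in gcn2 (SE 0.17, adjusted p = 3.69e-05), which is 2.43-fold and 2.23-fold. The call held in 12 of 13 alternatives in each genotype. On the scale of the BioB and BioC controls it ended, at −0.34 (adjusted p = 0.265) and −0.31 (0.322), and the direction stayed.

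UGT71B6, another abscisic acid glucosyltransferase, stood at 0.10 (SE 0.19) in wild type and −0.40 (SE 0.19) in gcn2, neither called, and its arrays overlapped. UGT74D1 (AT2G31750), which glucosylates auxins, lay the other way. It measured 6.83, 6.90 and 6.70 in gcn2 polysomal RNA against 6.40, 6.14 and 5.90, and 7.14, 6.88 and 6.97 in wild type against 6.31, 6.88 and 6.57. The groups were apart in gcn2 and overlapped in wild type through replicate 2. UGT74D1 rose by 0.67 in gcn2 (SE 0.15, adjusted p = 0.00293), a call kept in all 13 alternatives. In wild type it stood at 0.41 (SE 0.15, adjusted p = 0.0541) and passed with the block in both forms (0.0406 on 18 arrays, 0.0498 on 12), without dim probe sets (0.0439) and without non-polysomal replicate 2 (0.0146).

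UGT74F1 (AT2G43840), a salicylic acid glucosyltransferase, fell by 0.48 in wild type (SE 0.15, adjusted p = 0.0197). Its signals were low, at 3.75, 3.48 and 3.88 in polysomal and 3.99, 4.298 and 4.26 in non-polysomal RNA. In gcn2 its loading was −0.08 (SE 0.15) and the groups overlapped. The wild-type call ended without polysomal replicate 2 (0.115), non-polysomal replicate 2 (0.0733) or 3 (0.0654) and with quantile normalization (0.0936), and its adjusted p lay between 0.0128 and 0.159 in the alternatives. On the scale of the BioB and BioC controls it also ended and the sign reversed, at 0.46 (0.159). UGT87A2, known for an effect on flowering time, was lower in polysomal RNA in all 6 gradients. Its loading of −0.44 (SE 0.20) and −0.52 (SE 0.20) did not pass (adjusted p = 0.113 and 0.0605), but passed with the block (0.0305 and 0.0114).

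The remaining 7 loci of this role were not called in either genotype without or with the block. They are UGT73C1, UGT76C1 and UGT76C2, which act on cytokinins, UGT76B1 on isoleucic and salicylic acid, UGT76D1 on dihydroxybenzoic acids, UGT76E1 on hydroxyjasmonate and UGT84B1 on indole-3-acetic acid. The stress-responsive UGT73B4 and UGT73B5 stood at 0.12 (SE 0.19) and −0.01 (SE 0.18) in wild type, and at 0.15 in gcn2 (SE 0.19 and 0.18). UGT80B1, the sterol enzyme known from its seed colour mutant, stood at 0.05 and −0.02 (SE 0.14 each). No value of these 3 passed.

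Of 22 loci with no role assigned here, 4 were called in wild type and 3 in gcn2, beside 28.5% of all probe sets in each. UGT71C4 (AT1G07250), the gene next to UGT71C5, measured 5.77, 6.15 and 6.19 in gcn2 polysomal against 6.90, 6.84 and 6.72 in non-polysomal RNA. Its wild-type arrays overlapped, with 5.91, 6.10 and 6.51 against 6.35, 7.15 and 6.74. UGT71C4 fell by 0.78 in gcn2 (SE 0.24, adjusted p = 0.0178), a call lost without polysomal replicate 1 (0.0861) or non-polysomal replicate 1 (0.0526). On the scale of the BioB and BioC controls this call also ended and the sign reversed, at 0.069 (0.827). The alternatives gave 0.00129 to 0.827. In wild type it stood at −0.57 (SE 0.24, adjusted p = 0.0786) and passed with the block (0.0121), with quantile normalization (0.0436) and without polysomal replicate 3 (0.0402) or non-polysomal replicate 1 (0.0290).

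UGT72B3 (AT1G01420) measured 4.38, 4.82 and 5.07 in wild-type polysomal RNA against 5.17, 5.40 and 5.38, and 4.66, 4.95 and 4.93 in gcn2 against 5.54, 5.47 and 5.50. The groups were apart in both genotypes. It fell by 0.56 (SE 0.15, adjusted p = 0.00913) and 0.65 (SE 0.15, adjusted p = 0.00301), the first losing its call without polysomal replicate 1 (0.0743). On the scale of the BioB and BioC controls both calls ended and the sign reversed, at 0.38 (limma adjusted p = 0.216) and 0.19 (0.530). The alternatives gave the wild-type value 0.00204 to 0.216.

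UGT85A2 (AT1G22360) was the only member called higher in both genotypes, by 0.51 each (SE 0.18, adjusted p = 0.0441 and 0.0437). It measured 6.11, 6.14 and 6.41 in polysomal and 5.64, 5.45 and 6.05 in non-polysomal RNA of wild type, and 5.99, 6.32 and 6.41 against 5.59, 5.58 and 6.03 in gcn2, where the groups overlapped. Both calls lay close to the threshold. In wild type the call was lost without any 1 of the 3 polysomal replicates or non-polysomal replicates 1 and 2 (0.0606 to 0.180), with quantile normalization (0.0855) and with only the groups compared (0.0581). In gcn2 it was lost without polysomal replicates 2 and 3 or non-polysomal replicates 1 and 2 (0.125 to 0.146) and with only the groups compared (0.0695). The block kept it in both (0.00560 and 0.00543).

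UGT71B1 (AT3G21750) rose by 0.65 in wild type (SE 0.19, adjusted p = 0.0127), with 6.58, 6.33 and 6.42 in polysomal against 5.68, 6.32 and 5.39 in non-polysomal RNA. Replicate 2 of the non-polysomal group reached the lower edge of the polysomal one. The call ended without polysomal replicate 1 (0.0572) or non-polysomal replicate 3 (0.0868) and with only the groups compared (0.0512), and the alternatives gave 4.75e-05 to 0.0868. In gcn2 its loading was 0.30 (SE 0.19, adjusted p = 0.253), though the arrays did not overlap. UGT88A1 and UGT76E11 had positive values in all 6 gradients. UGT88A1 stood at 0.47 and 0.44 (SE 0.18 each, adjusted p = 0.0623 and 0.0777) and passed with the block in both genotypes (0.00563 and 0.00781). UGT76E11 stood at 0.53 and 0.49 (SE 0.23 each, adjusted p = 0.0885 and 0.120) and passed with it in wild type (0.0349).

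Loading was similar in order between the genotypes. Across the 47 members the wild-type and gcn2 values, which come from separate arrays but share replicate numbers, correlated at a Pearson r of 0.79 and a Spearman rho of 0.66. Over all 22746 probe sets the same coefficients were 0.89 and 0.80. Of the 7 loci called in each genotype, UGT71C5, UGT72B3 and UGT85A2 were called in both, each in the same direction. Over all probe sets 20.8% were called in both in the same direction, which is 4730 of the 6490 called in wild type and of the 6492 called in gcn2. The other 8 were called in 1 genotype, and in 0 of 47 did the test of the difference pass.

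**Figure D3:**
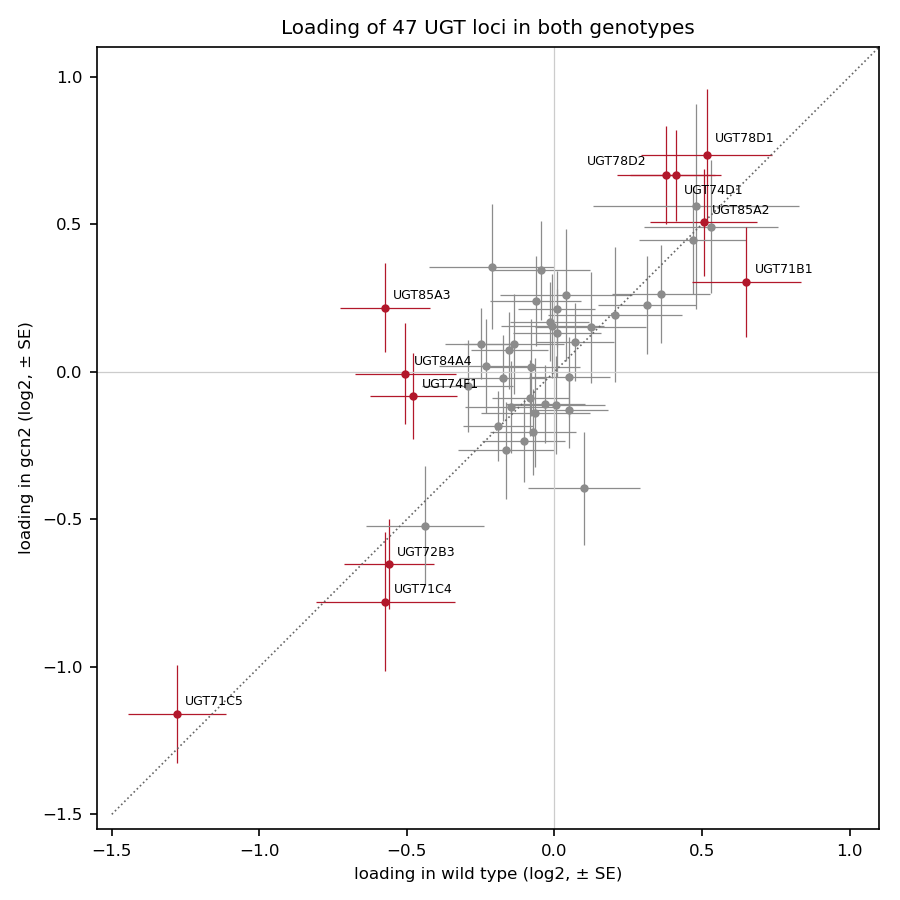
Loading in gcn2 (vertical axis, log2) against loading in wild type (horizontal axis, log2) for the 47 members, with bars of ± 1 SE and a dotted line of equality. The 11 loci called in at least 1 genotype are red and named. UGT71C5 lies near the line at −1.28 and −1.16, and UGT85A3 lies farthest above it.

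UGT85A3 (AT1G22380) had the largest difference in loading between the genotypes. In wild type it measured 3.68, 3.77 and 3.74 in polysomal and 4.43, 4.17 and 4.31 in non-polysomal RNA, and in gcn2 3.96, 3.67 and 4.18 against 3.90, 3.63 and 3.63. All wild-type gradients were negative, from −0.75 to −0.41, and all gcn2 gradients positive, from 0.04 to 0.55. UGT85A3 fell by 0.57 in wild type (SE 0.15, adjusted p = 0.00770) and stood at 0.22 in gcn2 (SE 0.15, adjusted p = 0.329). On the scale of the BioB and BioC controls the wild-type call ended and the sign reversed, at 0.36 (limma adjusted p = 0.243). The difference of 0.79 (SE 0.21, 95% interval 0.34 to 1.24) did not pass over all probe sets (limma adjusted p = 0.801, range 0.317 to 1.00 over the alternatives; unadjusted p = 0.00169). All its group means lay below the median of every array. The other 2 loci with the smallest p in this comparison were UGT84A4 at 0.50 (SE 0.24) and UGT76D1 at 0.34 (SE 0.17), each with an adjusted p of 0.952. In this comparison 1 of 47 members had an unadjusted p under 0.05, where 5.06% of all probe sets did, and 0.0044% of probe sets were called.

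The comparison of gcn2 with wild type within an RNA type asked whether the mutation moved the level of UGT transcripts. In total RNA 0 of 47 members passed in limma, and 0 had an unadjusted p under 0.05, beside 0.0352% of all probe sets called and 2.49% with such a p. Values ran from −0.37 to 0.33 with a median of 0.03, beside 0.01 over all probe sets. The 95% interval lay within 2-fold either way for all 47 loci. The flavonoid and glucosinolate enzymes were near 0, UGT78D1 at −0.04 (95% interval −0.51 to 0.43), UGT78D2 at −0.03 (−0.38 to 0.32) and UGT74B1 at 0.06 (−0.29 to 0.41).

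The smallest p-values in total RNA belonged to UGT71B6 at −0.37 (SE 0.19), UGT71C5 at 0.30 (SE 0.17) and UGT80B1 at 0.22 (SE 0.14), each with an adjusted p of 1.00. UGT71B6 measured 3.19, 3.50 and 3.81 in wild type and 3.14, 3.14 and 3.12 in gcn2, without overlap but with the gcn2 level near background. UGT71C5 measured 5.04, 4.96 and 4.93 in wild type and 5.19, 5.23 and 5.42 in gcn2, also without overlap, as was UGT80B1. In total RNA 4 of 47 members did not overlap between the genotypes, and this was not counted over all probe sets.

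In polysomal RNA 0 of 47 members passed and 3 had an unadjusted p under 0.05, beside 0.022% and 5.39% of all probe sets. These 3 were UGT71B6 at −0.46 (SE 0.19), UGT76C2, a cytokinin N-glucosyltransferase, at 0.35 (SE 0.15), and UGT76E12 at 0.29 (SE 0.13), with adjusted p values of 0.906, 0.906 and 0.908. UGT71B6 measured 3.71, 3.49 and 3.63 in wild type and 2.82, 3.22 and 3.41 in gcn2, a group mean of 3.15 that lies below every lower quartile. UGT76C2 measured 5.22, 5.11 and 4.86 in wild type and 5.57, 5.15 and 5.51 in gcn2, where the groups overlapped. UGT76E12 did not overlap but was near background. Of all 47 members, 9 did not overlap in polysomal RNA.

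In non-polysomal RNA 0 of 47 passed and 4 had an unadjusted p under 0.05, beside 0.0791% and 11.4% of all probe sets. UGT85A3 stood at −0.58 (SE 0.15, adjusted p = 0.144), and the block on the 12 fraction arrays called it lower (0.0397), the only member called there, where 1.89% of all probe sets were called. UGT76E12 stood at 0.47 (SE 0.13, adjusted p = 0.164) on signals near background, 2.83, 2.72 and 2.65 in wild type and 3.17, 3.14 and 3.30 in gcn2. UGT76E2 stood at −0.41 (SE 0.13, adjusted p = 0.205), with 4.72, 4.28 and 4.29 in wild type and 3.99, 4.06 and 4.00 in gcn2. These 3 did not overlap between the genotypes. The fourth was UGT74D1 at −0.44 (SE 0.15, adjusted p = 0.259), whose arrays overlapped. Of all 47 members, 8 did not overlap in non-polysomal RNA. Without a count over all probe sets, a lack of overlap cannot be set against the array.

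**Figure D4:**
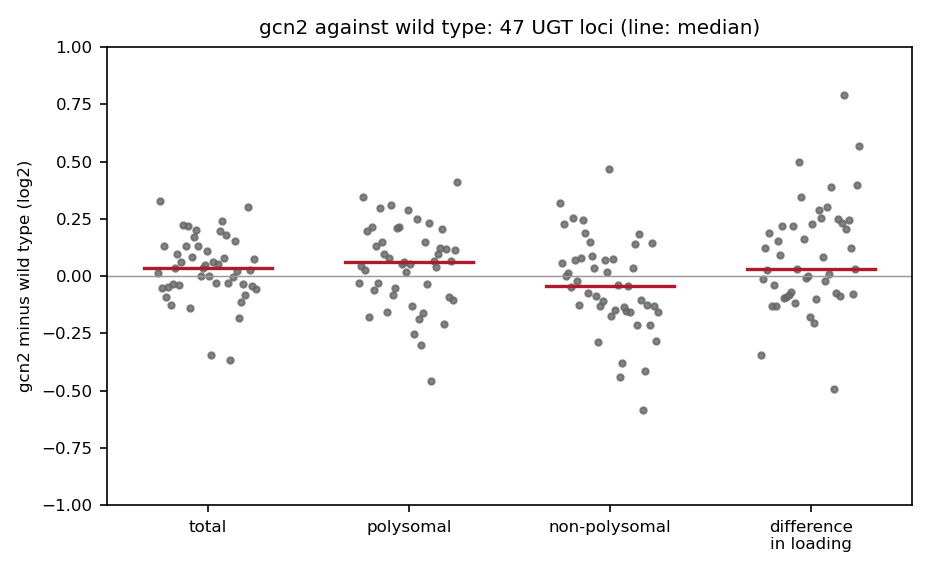
Difference of gcn2 from wild type (log2) for each of the 47 members in total, polysomal and non-polysomal RNA and in loading, with a line at the median. The medians lie between −0.04 and 0.06, and UGT85A3 is the highest point in the difference of loading, at 0.79, and the lowest in non-polysomal RNA, at −0.58.

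Neighbouring copies had loading of like and of unlike sign. By the gene order of the TAIR10.1 assembly, 24 members lie next to another member, in 10 runs of 2 to 4 genes. Loading had 1 sign throughout the run in 4 of 10 runs in wild type, in 4 in gcn2 and in 2 in both, with no test applied. Many run members were among the 11 loci below every lower quartile, where a sign says little. They are UGT71C1, UGT71C2, UGT71C3, UGT73C1, UGT73C2, UGT73C7, UGT73D1, UGT76E1 and UGT84B2. The 2 runs with 1 sign in both genotypes each hold such a locus, UGT71C3 and UGT84B2. The share for unrelated genes was not counted. In the run of UGT71C3, UGT71C4 and UGT71C5 on chromosome 1 the wild-type values were −0.18, −0.57 and −1.28 and the gcn2 values −0.02, −0.78 and −1.16. UGT71C3 was near background on these arrays, so its value says little of its transcript. In the run of UGT85A2, UGT85A3, UGT85A5 and UGT85A7, also on chromosome 1, UGT85A2 was called higher and UGT85A3 lower in wild type, 1.08 apart. UGT85A5 and UGT85A7 stood at −0.16 and −0.03. On chromosome 4 the hydroxycinnamate enzymes UGT84A1, UGT84A3 and UGT84A4 stood at −0.06, 0.21 and −0.51. All 47 member probe sets carry the plain name of a probe set designed for 1 transcript, but how far similar copies contribute to a signal was not tested.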

How the data were processed

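The values were the deposited log2 expression values per probe set, made by the authors from Affymetrix ATH1 arrays. Per the submitters' processing notes RMA, affy and MAS5 were used, with no role or version given, so which of them summarized the probes or corrected background is not stated. The array-wide scale was fixed by the authors, and a change in RNA per fraction is not visible. Of 22810 probe sets, 64 controls were left out of the tests. Names came from the platform annotation, and 13513 probe sets had 1 gene, 503 several and 8730 were not listed; 13436 of the first were matched by gene number to the RefSeq table of TAIR10.1, used for names and gene order only. Protein and promoter sequences were not used here.

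Groups and replicate numbers came from the sample titles. A group-means model of all 18 arrays (12 residual degrees of freedom) was fitted to all 22746 probe sets in limma 3.58.1 under R 4.3.3 with 6 contrasts, moderated by empirical Bayes, called at a Benjamini-Hochberg adjusted p under 0.05, with no filter. Errors are moderated standard errors unless named SD. With 3 against 3 arrays a permutation test cannot go below 0.1. No 2 arrays held identical values (0 of 153 pairs).

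Deviations from the group means of arrays with the same number correlated at 0.184 to 0.588 in 6 of 6 pairs of fraction groups, over 0.1, so the numbers were taken to pair the gradients. Wild-type total RNA also lay over 0.1 at every number with gcn2 polysomal and both non-polysomal groups. With wild-type polysomal RNA its lowest correlation was 0.0012. The numbers do not pair total RNA of the genotypes, where the lowest correlation was 0.02. This pairing is read from the data, since the labels do not state a shared batch. The numbers served as a block in fits of 18 and of 12 arrays.

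The members, gene lists and roles were chosen with earlier results of these data known. Values per array are given for UGT78D1, UGT78D2, UGT74B1 and up to 5 called members per direction and comparison with the largest change. Where fewer than 3 were called, the 3 smallest p-values are given. UGT71C3, UGT72E1, UGT76E11, UGT84A3, UGT87A2, UGT88A1 and members of the lists, roles and runs were named after their values were seen.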

Additional observations from a re-analysis of the deposited data

How the results depend on the processing

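The number of members called was followed over other settings. For gcn2 against wild type in total and polysomal RNA and for the difference in loading it was 0 in every setting run, and in non-polysomal RNA it was 1 with the replicate block on 12 arrays and 0 in the other settings. The wild-type loading count of 7 became 16 with that block, 40 when arrays were centred on the BioB and BioC controls, and 4 to 6 when 1 array was left out. The calls the block added are named above with their values, and it ended none. The gcn2 loading count of 7 became 10 with the block, 40 with the control centring and 5 to 8 without 1 array. With the block on 18 arrays the counts were 8 and 8, with quantile normalization 8 and 8, with a trended and robust prior 7 and 7, and with only the groups compared 8 and 6. Over all 22746 probe sets, the 18-array block called 3829 higher and 3586 lower in wild type, and 3774 and 3470 in gcn2. Quantile normalization called 3199 and 3032, and 3296 and 3150. The trended prior called 3413 and 3112, and 3382 and 3071. Only the groups compared gave 3443 and 2965, and 3097 and 2533. Without 1 array, 2756 to 3220 were called higher and 2248 to 2772 lower in wild type. In gcn2 these ranges were 2829 to 3272 and 2452 to 2844. The first fit had called 3468 and 3022, and 3443 and 3049. Without dim probe sets, a filter that removed 26 members, UGT74F1 and UGT85A3 among them, the member counts were 7 and 8 of 21. The lowest-mean probe set could not differ, as each locus had 1.

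The control centring moves all probe sets of an array by a common amount. A fall turned positive by construction where this shift outweighed it. That was so for all calls of lower loading except those of UGT71C5. The falls that changed sign included calls from −0.48 (UGT74F1, wild type) to −0.78 (UGT71C4, gcn2), and their direction depends on the scale chosen. In wild type UGT72B3 became 0.38, UGT74F1 0.46, UGT84A4 0.43 and UGT85A3 0.36. In gcn2 UGT71C4 became 0.069 and UGT72B3 0.19, while UGT74F1 and UGT84A4, not called lower there, became 0.77 and 0.84. These last values passed as higher (limma adjusted p = 0.0266 for UGT74F1 and 0.0136 for UGT84A4). Leaving out arrays and the other settings reversed no call of the 12 loci followed in this way.

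The number of arrays limits precision: among the members the standard error ran from 0.12 to 0.35 in the comparisons of 2 groups and from 0.17 to 0.49 for the difference in loading. For the 11 members below every lower quartile a difference was hardly measurable on this array.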

Other observations

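Further UGT transcripts lay outside the definition used above, because the gene's first symbol is another name or because the probe set is annotated to several genes. Of 4 loci with a UGT name as a synonym, 2 were called in wild-type and 1 in gcn2 loading, beside 28.5% of all probe sets in each. The sterol glucosyltransferase SGT (UGT80A2) rose by 0.81 in wild type (SE 0.18, limma adjusted p = 0.00170) and by 0.49 in gcn2 (SE 0.18, adjusted p = 0.0445), where its arrays overlapped. GT72B1 (UGT72B1), which glucosylates chlorinated phenols and monolignols, rose by 0.65 in wild type (SE 0.16, adjusted p = 0.00481) and stood at 0.39 in gcn2 (SE 0.16, adjusted p = 0.0790). UF3GT (UGT79B1), which adds xylose to anthocyanins, stood at 0.06 and 0.61 (SE 0.23 each), and AT5G54010 (UGT79B6) at 0.14 and −0.02 (SE 0.20 each), neither called. The tests of the difference between the genotypes did not pass for these 4 (adjusted p = 0.966 to 0.997).

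Of 3 probe sets shared between genes, the one annotated to UGT89B1 and AT1G73885 rose in gcn2 loading by 0.45 (SE 0.15, adjusted p = 0.0345), and its signal cannot be assigned to either gene. The one for UGT73B2 and UGT73B3 stood at 0.55 and 0.41 (SE 0.28 each) and the one for UGT71D1 and AT2G29710 at 0.57 and 0.25 (SE 0.23 each), with neither called. In gcn2 against wild type, 0 of these 7 probe sets passed in total, polysomal or non-polysomal RNA.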
